A study of Mus musculus with 56 samples.

Results

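The genes described here were 8 long noncoding RNAs (lncRNAs) that host small nucleolar RNAs (snoRNAs): 1110038B12Rik, Gas5, Snhg1, Snhg3, Snhg6, Snhg8, Snhg12 and Snhg17. They were chosen by name, with earlier results of these data known, from the 25415 genes of the gene table. Their 43 rows were taken from the 77120 of the transcript table. The livers came from female C57BL/6J mice, 7 weeks old at the start and 9 weeks old at collection. After 7 days of free feeding in 12 h of light and 12 h of dark, the mice received food only in the day (DRF, daytime-restricted feeding) or only in the night (NRF, nighttime-restricted feeding, the reference) for 7 days. Livers were collected at ZT0, 4, 8, 12, 16, 20 and 24, where ZT (zeitgeber time) counts hours from lights on, with 4 livers per time and regimen, 56 in all. No untreated or freely fed group was analysed here, and both regimens limited the hours of feeding. Whole liver was used, so fewer cells of a type and less RNA per cell cannot be told apart.

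A snoRNA host gene is transcribed as a long precursor, its exons are spliced together, and snoRNAs are cut out of its introns. Many snoRNAs guide chemical changes of ribosomal RNA, methylation of the sugar for box C/D snoRNAs and conversion of uridine to pseudouridine for box H/ACA snoRNAs. That role is not claimed here for every hosted snoRNA. The spliced host RNAs are noncoding. Several carry a 5′ terminal oligopyrimidine tract, the run of C and T at the RNA start shared with ribosomal protein mRNAs, which ties their handling by the ribosome to nutrient signalling through mTOR. Several are also degraded by nonsense-mediated decay, which needs translation.

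Gas5, Snhg1 and 1110038B12Rik (also known as Snhg32) carry box C/D snoRNAs. Under GENCODE annotation of GRCm38, Gas5 (ENSMUSG00000053332) occupied chr1:161034422-161038539 on the plus strand with 10 annotated snoRNA entries, Snhg1 (ENSMUSG00000108414) chr19:8723475-8726443 on the plus strand with 8, and 1110038B12Rik (ENSMUSG00000092203) chr17:34950238-34952471 on the minus strand with 2. Snhg6 (ENSMUSG00000098234, chr1:9941959-9944118, minus) held Snord87 alone. The box H/ACA hosts were Snhg3 (ENSMUSG00000085241, chr4:132348014-132353686, minus) with Snora73a and Snora73b, Snhg8 (ENSMUSG00000104960, chr3:123507552-123508404, minus) with Snora24, and Snhg17 (ENSMUSG00000085385, chr2:158353700-158361580, minus) with 3 entries. Snhg12 (ENSMUSG00000086290, chr4:132308623-132311024, plus) held entries of both kinds, among them Snora44 and Snord99. In all, 32 snoRNA entries lay inside the 8 genes.

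The sequences of 4 hosted snoRNAs are shown because they are the products that make these genes hosts, each 5′ to 3′ in the annotation's transcript sequence. Capitals mark the C box (TGATGA) and the D box (CTGA) of a box C/D snoRNA, or the ACA near the 3′ end of a box H/ACA snoRNA. Snord52 lies in 1110038B12Rik (chr17:34950952-34951017, minus), Snord47 in Gas5 (chr1:161038082-161038158, plus), Snord87 in Snhg6 (chr1:9942463-9942549, minus) and Snora73b in Snhg3 (chr4:132352322-132352526, minus).
Snord52: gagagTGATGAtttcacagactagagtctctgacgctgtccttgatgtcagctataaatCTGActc
Snord47: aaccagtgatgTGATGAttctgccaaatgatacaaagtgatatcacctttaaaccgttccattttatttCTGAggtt
Snord87: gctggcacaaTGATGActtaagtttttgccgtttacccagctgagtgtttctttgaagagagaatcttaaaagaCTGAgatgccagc
Snora73b: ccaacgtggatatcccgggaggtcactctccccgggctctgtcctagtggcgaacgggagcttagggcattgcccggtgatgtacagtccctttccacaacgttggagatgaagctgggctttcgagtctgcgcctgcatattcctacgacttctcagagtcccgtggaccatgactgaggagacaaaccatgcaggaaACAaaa

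The starts of the hosts are shown because a pyrimidine run there is the feature they are known to share with ribosomal protein genes. RefSeq promoter sequences of GRCm38.p6, each with 250 bases before and 50 after an annotated start, held 10 entries for 7 of the 8 hosts. The windows below run 20 bases to each side of the start, so that base 21 is the first of the RNA. Capitals mark a run of at least 5 pyrimidines counted from a C within 3 bases of the start. That C could itself follow a pyrimidine, in which case the longer run is marked from the C on.
1110038B12Rik (chr17:34952449-34952488, minus): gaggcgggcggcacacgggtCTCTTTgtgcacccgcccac
Gas5, downstream start (chr1:161035146-161035185, plus): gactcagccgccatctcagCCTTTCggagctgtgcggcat
Snhg8 (chr3:123508317-123508356, minus): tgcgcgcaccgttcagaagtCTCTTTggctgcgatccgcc
Snhg12 (chr4:132308658-132308697, plus): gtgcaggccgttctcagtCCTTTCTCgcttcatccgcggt
Snhg3 (chr4:132353667-132353706, minus): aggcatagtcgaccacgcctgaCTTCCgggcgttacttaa
Snhg1 (chr19:8723467-8723506, plus): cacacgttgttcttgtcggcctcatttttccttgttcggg
Such a run was found in 6 of the 10 entries, belonging to 5 of the 7 hosts, against 11.5% of all 32851 promoter entries. The 2 entries of 1110038B12Rik, with starts at 34952468 and 34952471, hold the same run, which is counted for each. The 2 entries of Snhg17, without a run, also overlap. By this rule Snhg1, Snhg17 and the upstream start of Gas5 had none. On both strands of the 300-base promoters, the E-box CACGTG bound by the clock factors was in none of the 10 entries (7.15% of all entries), nor were the D-box TTATGTAA or TTACGTAA (1.06%) or the ROR element AGGTCA or GGGTCA (27.5%). These are matches of letters within the windows and say nothing of binding.

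The deposited values proved to be a logarithmic form of whole-number counts. They were turned back into counts and divided by the library's own scale, giving the scaled count. One unit of scaled count stood for 304 to 723 recovered counts, which summed to 301346238 to 675747920 per library and are steps of the deposited table, not read numbers. How many reads a recovered count stands for is unknown. The 8 hosts' recovered counts were whole to within 0.00509 in all 56 libraries. All 9 hepatocyte markers measured were above 0 in each library and summed to 105287 to 166163 units, against 629 to 1372 for 10 Kupffer cell markers, 644 to 854 for 10 sinusoidal endothelial markers and 736 to 1032 for 10 stellate cell markers. Livers of a group correlated at 0.965 to 0.990 on the log scale. Libraries also differed in the balance of long against short genes: the Spearman correlation between exon length and a gene's deviation from its own mean, over 13671 genes, averaged from -0.23 in the DRF ZT8 livers to 0.18 in the NRF ZT24 livers and was below 0 at ZT0, 4 and 8 in both regimens.

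All 8 hosts were measured in every library. Per kilobase of annotated exon, their mean scaled counts ran from 1.97 ± 0.618 (SD, n = 56) for 1110038B12Rik through 1.84 ± 0.508 for Gas5, 1.81 ± 0.749 for Snhg6 and 1.796 ± 0.368 for Snhg3 to 1.38 ± 0.294 for Snhg1 and 1.11 ± 0.282 for Snhg8. Snhg12 followed at 0.675 ± 0.254 and Snhg17 at 0.0975 ± 0.0194. The 4 highest lay within an SD of each other, whereas Snhg17 stood well below the rest. The order depends on the annotated exon length, which takes in the introns kept by some transcripts: 100% of the Snhg1, Snhg8 and Snhg12 genes counted as exon, against 17.4% of Snhg3 and 53.1% of Snhg6. In the summed annotation, 29 of the 32 snoRNA entries lay within their host's exons.

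The question of the design was whether daily rhythms follow the hours of feeding. A 24-h cosine was fitted to log2(scaled count + 1) in each regimen with limma, over all 25141 genes whose counts could be rebuilt, and p-values were adjusted over those genes by Benjamini-Hochberg with a threshold of 0.05. On this scale changes of low genes are understated, among the hosts most for Snhg8 and Snhg17. Under NRF 5 of the 8 hosts were rhythmic, and all 5 peaked between ZT7.06 and ZT8.96, late in the light phase when no food was given. The background was 43.7% of all genes called, and of those called 45.0% peaked between ZT4 and ZT12. Under DRF 4 of the 8 were rhythmic (34.9% of all genes), and 3 of these peaked between ZT22.4 and ZT2.41, around the change from dark to light. Of all genes called under DRF, 27.4% peaked between ZT20 and ZT4. The rhythm itself differed between regimens for 1110038B12Rik, Snhg1, Snhg6, Snhg12 and Gas5, 5 of the 8, beside 38.8% of all genes. Rhythms in both regimens were called for 1110038B12Rik, Snhg1 and Snhg6, 3 of the 8, beside 23.2% of all genes. No test set these shares of 8 genes apart from those of all genes.

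**Figure D1:**
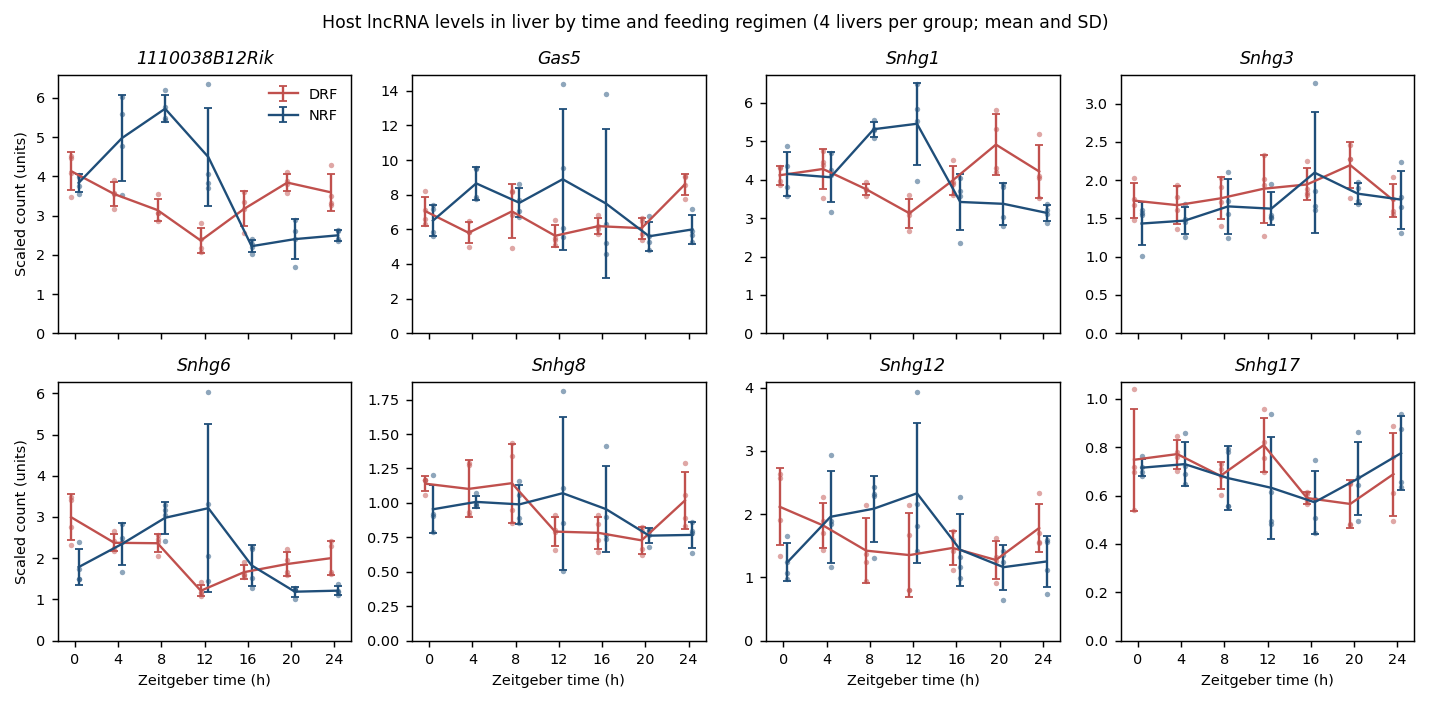
Scaled count (vertical axis, units) of each host lncRNA against zeitgeber time (horizontal axis, hours) under DRF (red) and NRF (blue). Points are single livers, lines join group means and bars are SDs of 4 livers. Under NRF, 1110038B12Rik was highest at ZT8 (mean 5.73, against 3.14 under DRF) and Snhg1 at ZT12 (mean 5.46, against 3.13 under DRF), and for Snhg3 and Snhg17 no difference in rhythm was called.

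1110038B12Rik, host of Snord52, had the lowest adjusted p of the 8 for each of the NRF rhythm and the difference between regimens. The NRF livers at ZT8 held 5.78, 5.44, 5.49 and 6.19 units and those at ZT16 held 2.28, 2.20, 2.39 and 2.01. Under DRF the livers held 4.52, 3.46, 4.09 and 4.47 units at ZT0 and 2.07, 2.17, 2.40 and 2.81 at ZT12. Every liver at the high time exceeded every liver at the low time in both regimens, but the high and low times were not the same clock hours. The high group mean was 2.58 times the low one under NRF and 1.75 times under DRF. The fitted amplitude on the log2 scale was 0.56 ± 0.054 (SE) under NRF (limma adjusted p = 1.78e-11) and 0.23 ± 0.048 under DRF (adjusted p = 8.06e-04), a difference of -0.34 ± 0.073. Its fitted peak was at ZT7.06 ± 0.332 under NRF and ZT23.5 ± 0.926 under DRF, 7.55 ± 0.983 h apart (adjusted p = 3.55e-10 for the difference in rhythm).

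By time of day the difference in 1110038B12Rik changed sign between ZT12 and ZT16. DRF livers were lower at ZT4, at ZT8 (3.14 against 5.73 units, log2 difference -0.70 ± 0.11 SE, adjusted p = 1.16e-05) and at ZT12 (2.36 against 4.49, -0.69 ± 0.11, adjusted p = 1.07e-05). They were higher at ZT16, at ZT20 (3.84 against 2.40, 0.52 ± 0.11, adjusted p = 6.54e-04) and at ZT24. The 4 livers of each regimen did not overlap at ZT8, 12, 16, 20 and 24. At ZT4 one NRF liver, at 3.53 units, lay among the DRF livers, and without NRF ZT4 replicate 3 or 4 that call was lost, with adjusted p up to 0.0731. The ZT16 call was lost without DRF ZT16 replicate 3 or 4 (up to 0.0801) and the ZT24 call without DRF ZT24 replicate 1 (0.0776). At ZT0 the means were 4.13 and 3.83 units (adjusted p = 0.735).

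Snhg1, whose gene holds 8 snoRNA entries including Snord22, was high at different hours in the 2 regimens. Its NRF livers held 5.31, 5.30, 5.57 and 5.09 units at ZT8 and 3.10, 3.20, 3.37 and 2.88 at ZT24. The DRF livers held 3.15, 3.59, 2.67 and 3.09 units at ZT12 and 5.32, 5.83, 4.21 and 4.31 at ZT20. All NRF livers at ZT8 were above all DRF livers at ZT8 (3.58 to 3.94 units), and at ZT20 the order was turned round. The log2 difference, DRF minus NRF, was -0.41 ± 0.11 (SE) at ZT8 (adjusted p = 0.0108), -0.63 ± 0.11 at ZT12 (adjusted p = 5.96e-05) and 0.44 ± 0.11 at ZT20 (adjusted p = 0.00611). At ZT24 it was 0.33 ± 0.11, with an adjusted p of 0.0484, and this call was lost in 34 of the 56 fits that each left out 1 library, with adjusted p up to 0.233. The peaks fitted to Snhg1 were at ZT8.86 ± 0.659 (SE) under NRF and ZT22.4 ± 1.27 under DRF, 10.5 ± 1.43 h apart, the widest separation of the 5 called hosts. The NRF rhythm had an adjusted p of 2.01e-05 and the DRF rhythm one of 0.0258, which rose to 0.0777 at most when DRF ZT12 replicate 1, 3 or 4 was left out.

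Snhg6, host of Snord87, was 2.48 times higher at ZT0 than at ZT12 under DRF and 2.71 times higher at ZT12 than at ZT20 under NRF, where 1 liver at ZT12 held 6.03 units against 3.33 in the next. Its DRF livers held 3.42, 2.32, 3.48 and 2.76 units at ZT0 and 1.18, 1.09, 1.16 and 1.41 at ZT12. The NRF livers held 3.29, 2.42, 3.17 and 3.04 units at ZT8, 3.33, 6.03, 1.44 and 2.06 at ZT12 and 1.22, 1.28, 1.01 and 1.24 at ZT20. The high and low DRF livers did not overlap, whereas the NRF livers at ZT12 were scattered and held the highest value of the gene. Both rhythms were called (adjusted p = 0.00245 under DRF and 1.78e-06 under NRF), with peaks at ZT2.41 ± 0.941 (SE) and ZT8.96 ± 0.584, 6.55 ± 1.11 h apart. The difference in rhythm, in amplitude and peak together, had an adjusted p of 5.82e-06. DRF livers were lower than NRF livers at ZT12 (log2 difference -0.82 ± 0.17, adjusted p = 3.20e-04, and -0.53 with adjusted p = 0.00697 without NRF ZT12 replicate 2) and higher at ZT0 (0.52 ± 0.17, adjusted p = 0.0228). The ZT0 call was lost when DRF ZT0 replicate 1 or 3, or NRF ZT0 replicate 1 or 3, was left out, with adjusted p up to 0.0807. Of Snhg6's exon bases, 11.1% are shared with Mcmdc2 on the opposite strand, and the use of strand in counting is not given in the sources used here.

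Snhg12, host of Snora44 and Snord99, lies near Snhg3 on chromosome 4. Its NRF livers held 1.31, 2.43, 2.31 and 2.29 units at ZT8 and 1.25, 1.35, 0.635 and 1.42 at ZT20. Under DRF they held 2.63, 1.91, 2.58 and 1.34 units at ZT0 and 1.25, 0.905, 1.62 and 1.32 at ZT20. The groups overlapped in both regimens. The NRF rhythm was called (amplitude 0.32 ± 0.074 SE on the log2 scale, adjusted p = 0.00147, peak ZT8.94 ± 0.888) and the DRF rhythm was not (0.17 ± 0.071, adjusted p = 0.132, fitted peak ZT1.79 ± 1.69). The difference between the rhythms was called, with an adjusted p of 0.00303, but no time of day was, the lowest adjusted p being 0.0931 at ZT12.

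Gas5, the growth arrest-specific transcript, varied widely among NRF livers. They held 9.56, 14.4, 6.07 and 5.57 units at ZT12 and 5.24, 6.32, 13.8 and 4.58 at ZT16, and 1 liver at each time stood well above the others. Its DRF livers at ZT24 held 9.05, 9.03, 8.55 and 7.75 units, all above the NRF livers at that time (5.25 to 7.18). The NRF rhythm had an adjusted p of 0.0278 (peak ZT8.45 ± 1.18 SE), the DRF rhythm one of 0.324, and the difference one of 0.0328. The difference was lost without DRF ZT8 replicate 3, DRF ZT12 replicate 1, NRF ZT12 replicate 1 or NRF ZT12 replicate 2, with adjusted p up to 0.0741, and was 0.235 without the ZT24 livers and 0.0735 without the ZT0 livers. The NRF call itself was lost without NRF ZT12 replicate 2 (adjusted p = 0.0523) or NRF ZT20 replicate 3 (0.0586). At ZT4 the DRF livers (5.01 to 6.50 units) did not overlap the NRF livers (7.75 to 9.52), with a log2 difference of -0.50 ± 0.19 and an adjusted p of 0.0531.

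Snhg8, host of Snora24, was called rhythmic under DRF (adjusted p = 0.00425) and not under NRF (adjusted p = 0.185). Its DRF livers held 1.17, 1.06, 1.17 and 1.17 units at ZT0 and 0.665, 0.796, 0.625 and 0.825 at ZT20, with no overlap. Its NRF livers ranged from 0.502 to 1.81 units at ZT12 alone. The fitted DRF peak was ZT4.38 ± 0.876 (SE) and the NRF one ZT8.84 ± 1.77. A difference between the rhythms was not called (adjusted p = 0.0616), so the regimens are not shown to differ. It passed in 7 fits that left out 1 library, down to 0.00998 without NRF ZT12 replicate 3, and with the length trend of each library removed the DRF rhythm had an adjusted p of 0.107. Under that setting the DRF amplitude fell from 0.17 to 0.098 and the fitted peaks lay 10.7 h apart in place of 4.46 h, so the peak times given here depend on it. The part of the length trend in the Snhg8 result was not tested further.

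Snhg3, host of Snora73a and Snora73b, had close fitted peaks in the 2 regimens. Its group means ran from 1.67 units at ZT4 to 2.20 at ZT20 under DRF and from 1.43 at ZT0 to 2.10 at ZT16 under NRF. The fitted peaks were at ZT17.2 ± 1.57 (SE) and ZT16.5 ± 1.34, 0.679 ± 2.06 h apart. Neither rhythm was called (adjusted p = 0.206 and 0.0820), and the difference had an adjusted p of 0.943, which does not show that the courses were alike. The call depended on the processing: with the length trend removed both rhythms passed, at adjusted p = 0.0211 and 0.00692. Snhg3 shares 71.5% of its exon bases with Gm17300 on the opposite strand and 13.7% with Rcc1 on its own, so its counts cannot be assigned to it with certainty.

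Snhg17, the lowest of the hosts per kilobase, ranged over group means of 0.565 units at ZT20 to 0.809 at ZT12 under DRF and 0.572 at ZT16 to 0.776 at ZT24 under NRF. No rhythm was called (adjusted p = 0.138 and 0.0993), nor a difference (adjusted p = 0.293). With the length trend removed the DRF rhythm had an adjusted p of 0.0210.

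**Figure D2:**
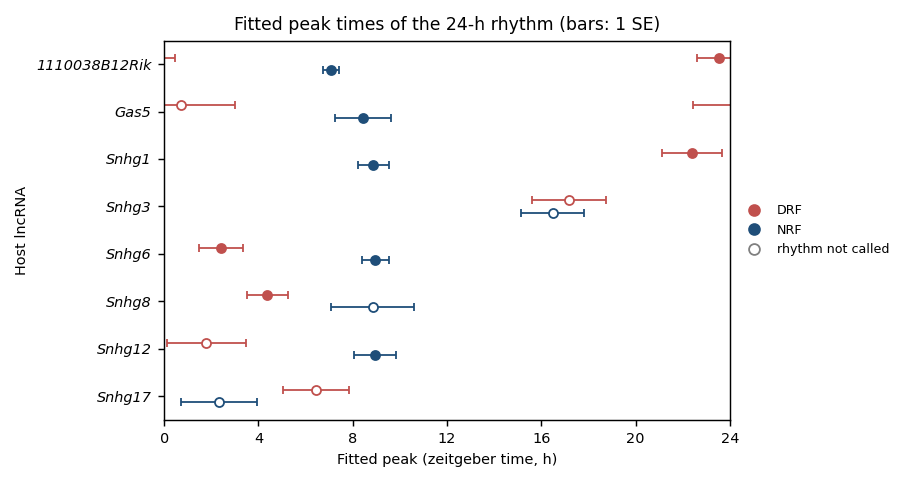
Fitted peak of the 24-h cosine (horizontal axis, zeitgeber time in hours, with 24 the same as 0) for each host under DRF (red) and NRF (blue), with bars of 1 SE that continue on the other edge where they cross it. Filled points mark called rhythms. The 5 called NRF peaks lie between 7.06 and 8.96 h, whereas the 4 called DRF peaks lie between 22.4 and 4.38 h.

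An exact inversion, a 12-h shift at equal amplitude, was tested by asking whether the cosines of the regimens cancelled. A departure can come from the peak times, from the amplitudes or from both, so this is not a test of the shift alone. Among the 5 hosts whose rhythm differed, the departure from inversion was called for 1110038B12Rik (adjusted p = 3.70e-06), whose amplitudes also differed by -0.34 ± 0.073 (SE), and Snhg6 (adjusted p = 5.92e-04). It was not called for Snhg1, Gas5 and Snhg12, at adjusted p = 0.219, 0.289 and 0.0639, which does not show that they were inverted. These 3 of 8 stand beside 20.1% of all genes with a called difference and no called departure. Snhg3 and Snhg8 also departed (adjusted p = 0.0210 and 0.0128), making 4 of 8 beside 34.3% of all genes. The fitted peaks of the 5 lay 6.55 to 10.5 h apart. With the values as deposited they lay from 7.18 h (Snhg6) to 11.8 h (Snhg1) apart, so the separations depend on the processing.

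Levels can also be set side by side at the same hours of each regimen's own cycle, DRF counted from lights on and NRF from lights off. At the end of the day under DRF (ZT12) and of the night under NRF (ZT24), 1110038B12Rik averaged 2.36 and 2.50 units, Snhg1 3.13 and 3.14, and Snhg6 1.21 and 1.21. The NRF livers of ZT0, the same hour as ZT24, averaged 3.83 units for 1110038B12Rik, 4.15 for Snhg1 and 1.78 for Snhg6. These means were all above those of DRF at ZT12, so the closeness at this hour held for ZT24 and not for ZT0. At the start, ZT0 under DRF and ZT12 under NRF, the means were 4.13 and 4.49 units for 1110038B12Rik, 2.99 and 3.21 for Snhg6, and 4.12 and 5.46 for Snhg1. With the DRF livers of ZT24 in place of ZT0, the DRF means were 3.595 units for 1110038B12Rik, 1.998 for Snhg6 and 4.216 for Snhg1. In between, Snhg6 averaged 2.37 units at ZT4 under DRF against 1.82 at ZT16 under NRF, and 2.36 at ZT8 against 1.19 at ZT20. At ZT4 under DRF 1110038B12Rik averaged 3.55 units, against 2.22 at ZT16 under NRF. These pairs were set side by side without a test.

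**Figure D3:**
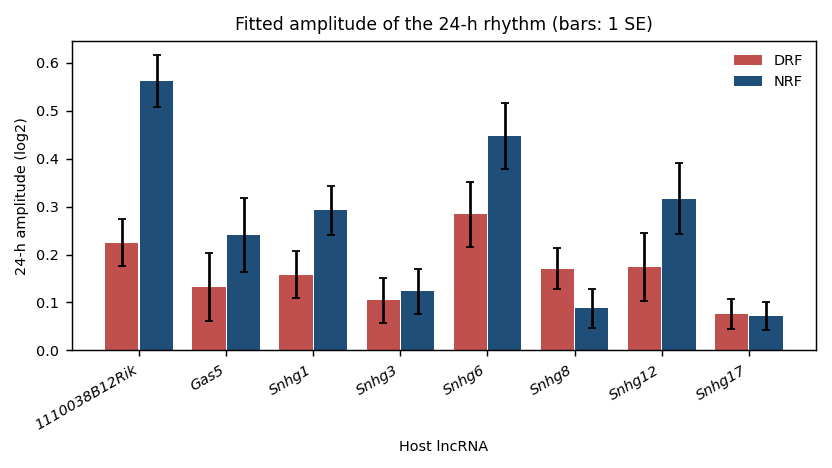
Fitted amplitude of the 24-h cosine (vertical axis, log2 units of scaled count + 1) of each host under DRF (red bars) and NRF (blue bars), with error bars of 1 SE. 1110038B12Rik had an amplitude of 0.23 under DRF and 0.56 under NRF, and the fitted values of Snhg8 were 0.17 and 0.09.

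Fitted amplitudes were lower under DRF in 6 of the 8 hosts, with medians of 0.16 under DRF and 0.27 under NRF. The share of all genes with a lower DRF amplitude was not computed. The difference was -0.34 ± 0.073 (SE) for 1110038B12Rik and -0.13 ± 0.070 for Snhg1. For Snhg3, where neither rhythm was called, it was -0.019 ± 0.067. Over all 25141 genes, of which 13671 averaged at least 1 unit, the medians were 0.09 and 0.10. The mean level over the day differed between regimens for none of the 8 by limma's adjusted p, against 6.77% of all genes (4.07% higher and 2.7% lower under DRF), and 1 of the 8 had an unadjusted p under 0.05, beside 19.7% of all genes. That was 1110038B12Rik, at 3.40 ± 0.635 (SD, n = 28) units under DRF and 3.73 ± 1.45 under NRF, with an adjusted p of 0.210.

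**Figure D4:**
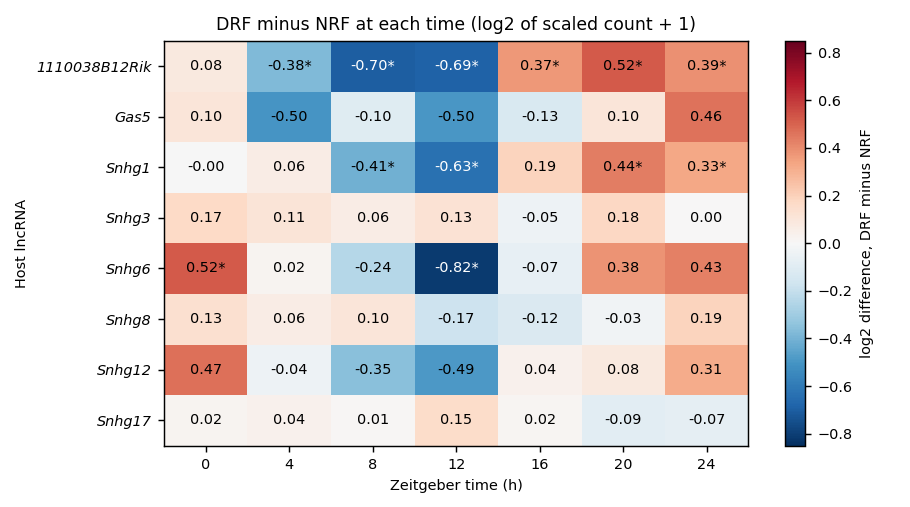
Log2 difference in scaled count + 1, DRF minus NRF, for each host (rows) at each zeitgeber time (columns, hours). Red cells are higher under DRF, blue cells lower, and a star marks an adjusted p under 0.05. The 12 starred cells belong to 1110038B12Rik, Snhg1 and Snhg6, and 10 of them fall at ZT8 or later.

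Counted over the day, 12 of the 56 host-by-time comparisons were called, 6 in 1110038B12Rik, 4 in Snhg1 and 2 in Snhg6. At ZT12 the 3 that were called were all lower under DRF, where 8.11% of all genes were. At ZT8 2 of 8 were lower (background 7.27%) and at ZT20 2 of 8 were higher (background 7.7%). At ZT0 1 of 8 was higher (7.99% of all genes, with 8.02% lower), at ZT4 1 was lower (9.6%, with 10.8% higher), at ZT16 1 was higher (8.74%, with 6.44% lower) and at ZT24 2 were higher (7.12%, with 6.92% lower). Of all genes 5.66% were higher at ZT8, 7.02% at ZT12, and 6.07% lower at ZT20. The livers of the regimens did not overlap for 0 of the 8 at ZT0 (19.4% of all genes), for 1 at ZT4 (22.4%) and 1 at ZT16 (15.9%), for 2 at ZT8 (18%), for 3 at ZT12 (16.1%) and 3 at ZT20 (17.6%), and for 4 at ZT24 (16.8%), the last 1110038B12Rik, Gas5, Snhg1 and Snhg6. Within regimens, DRF livers of ZT0 and ZT12 did not overlap for 4 of the 8 (23.4%), nor NRF livers of ZT8 and ZT20 for 4 of the 8 (28.5%), in both cases 1110038B12Rik, Snhg1, Snhg6 and Snhg8.

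ZT24 and ZT0 are the same hour of consecutive cycles and served as a control. In the NRF livers 1110038B12Rik fell from 3.83 units at ZT0 to 2.50 at ZT24 (log2 difference -0.47 ± 0.11 SE, adjusted p = 0.00627), with no overlap between the 4 livers of each time. Lower at ZT24 under NRF were 5.58% of all genes, and no other host was called in either regimen. The length correlation of the libraries moved the same way, from -0.18 to 0.18 between the NRF livers of ZT0 and ZT24, and under DRF from -0.12 to 0.17, where 1110038B12Rik was not called (adjusted p = 0.503). Its part in this result was not tested. The rhythm of 1110038B12Rik was called in both regimens without the ZT0 livers and without the ZT24 livers.

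Several hosts were high in the same NRF livers. Replicate 2 at ZT12 exceeded its 3 group mates for 6 of the 8 hosts, as it did for 25% of all genes, and replicate 3 at ZT16 did so for 6 of the 8, as for 29.4% of all genes. In the ZT12 liver Gas5 stood at 14.4 units, Snhg6 at 6.03 and Snhg12 at 3.93. Without both livers, a choice made after these values were seen, the counts of rhythmic hosts stayed at 4 under DRF and 5 under NRF and the count of differing rhythms at 5. Departure from inversion was then called for 5 of the 8.

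Across the 14 group means the hosts followed each other to different degrees, which is given as a description. Pearson's r ranged from -0.55 (Snhg3 with Snhg17) to 0.87 (Snhg6 with Snhg12) over the 28 pairs, with a median of 0.41, and 1110038B12Rik and Snhg1 were at 0.86. The genes with the most alike course were Hist4h4 (a histone gene, r = 0.96) for 1110038B12Rik, Yipf3 (0.93) for Snhg1, 9130019P16Rik (0.98) for Snhg6, S100a13 (0.97) for Snhg8, Aff3 (0.94) for Snhg12 and Apobec3 (0.89) for Gas5. For Snhg3 it was Golph3 (0.89) and for Snhg17 Lrrc57 (0.91). All these values share the same 56 libraries.

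Transcript rows gave estimated levels of single splice forms. Only 43 of the 83 annotated host transcripts had rows, 12 of 25 for Gas5 and 6 of 18 for Snhg1. Of the 43, 9 were rhythmic in at least 1 regimen (20.2% of all 56416 transcripts tested) and 8 differed in rhythm (14.1%). By regimen 5 were rhythmic under DRF (10.5%) and 7 under NRF (15.1%). 1110038B12Rik-201, a spliced form of 579 bases, ranged from 0.170 ± 0.0242 (SD, n = 4) units at ZT16 to 1.27 ± 0.179 at ZT8 under NRF, and from 0.311 ± 0.0751 at ZT12 to 0.895 ± 0.123 at ZT20 under DRF. Its peaks were at ZT7.81 ± 0.392 (SE) and ZT20.7 ± 0.721 (adjusted p = 1.09e-10 for the difference in rhythm). They lay 11.1 ± 0.821 h apart. Departure from inversion was not called for this form (limma adjusted p = 0.119), unlike the gene row, which does not show that it was inverted. The retained-intron form 1110038B12Rik-202 had its called DRF peak at ZT6.27 ± 0.921.

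Snhg6-203, a spliced form of 473 bases, was the most abundant host transcript, with a median of 1837 recovered counts. It was rhythmic under DRF (adjusted p = 0.0319, peak ZT2.03 ± 1.13 SE) and NRF (adjusted p = 1.05e-05, peak ZT8.67 ± 0.583), and Snhg6-204 followed it with peaks at ZT3.56 ± 1.02 and ZT8.97 ± 0.845. Among the Snhg3 forms the course was not shared: under NRF Snhg3-204 peaked at ZT6.25 ± 0.925, while Snhg3-202 and Snhg3-205 peaked at ZT17.1 ± 0.987 and ZT18.5 ± 0.662, all 3 called. Snhg3-205 also differed in rhythm between regimens (adjusted p = 0.00784), which the Snhg3 gene row did not. This form had a median of 61.5 recovered counts and was listed at 0 in 8 of the 56 libraries. Snhg12-205, Snhg12-209 and Snhg12-210 differed in rhythm at adjusted p = 0.0212, 0.0105 and 0.0143 without a called rhythm in either regimen. Their medians were low, at 36.5, 27.5 and 37.5 recovered counts. Gas5-210 and Gas5-224 were listed at 0 in 19 and 18 of the 56 libraries, and no Gas5 transcript was called. Of the Snhg1 forms only Snhg1-206 was called rhythmic, under NRF alone (adjusted p = 0.00269), and none differed in rhythm, unlike the Snhg1 gene row.

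The hosted snoRNAs were themselves barely seen. Of the 29 listed rows, 16 had a median of at most 1 recovered count and 12 a median of at most 22. The exception was Snora73b, the sequence printed above, with a median of 361 counts (182 to 918). Its group means ran from 0.509 ± 0.0462 (SD, n = 4) units in the NRF ZT24 livers to 1.18 ± 0.851 in the NRF ZT16 livers, and it was not called rhythmic under DRF (adjusted p = 0.822) or NRF (adjusted p = 0.401). Snora24, within the exon of Snhg8, was called under DRF (adjusted p = 0.0157) with a peak at ZT4.00 ± 1.03 (SE), near that of its host, from 9 to 48 counts per library. Under NRF it was not called (adjusted p = 0.264), and its fitted peak was ZT18.4 ± 1.76, against ZT8.84 for Snhg8. The rhythm of Snora24 differed between regimens (limma adjusted p = 0.0100), which was not called for Snhg8. One of the 2 Snord80 rows of Gas5 (ENSMUSG00000105780) was also called under DRF, from 2 to 27 counts. Reads of a snoRNA that lies within its host's exons cannot be told apart from reads of the host.

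Of 13 other lncRNA hosts tested, 4 were rhythmic under each regimen and 4 differed in rhythm. Beside these stand 34.9% of all genes rhythmic under DRF, 43.7% under NRF and 38.8% with a difference. Zfas1, host of the Snord12 family, ranged over DRF group means of 3.19 to 5.43 units and peaked at ZT7.94 ± 0.819 (SE) under NRF and ZT1.60 under DRF (adjusted p = 6.04e-05 for the difference). Epb41l4aos peaked at ZT9.49 ± 0.491 under NRF (adjusted p = 2.78e-07 for the difference). Mir17hg, host of a microRNA cluster, had its NRF peak at ZT21.2 ± 0.9 and its DRF peak at ZT11.0. Snhg14 differed in rhythm (adjusted p = 0.0206) with neither rhythm called. Of 27 protein-coding snoRNA hosts, 10 were rhythmic under DRF, 9 under NRF and 8 differed, to be read beside the same shares of all genes. The lowest adjusted p for the difference were those of the translation factors Eif4a2 (8.18e-13) and Eif4a1 (5.22e-07). The nucleolar proteins Ncl (1.99e-06) and Nop56 (7.64e-06) followed.

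Proteins that bind snoRNAs form a core of each particle. Of the 8 core genes 5 were rhythmic under DRF, all peaking between ZT4 and ZT12, and 4 under NRF, of which 3 peaked between ZT12 and ZT20, and 6 differed in rhythm. Among all genes 34.9% were called under DRF, 43.7% under NRF and 38.8% for the difference. Of all called genes, 3312 of 8785 peaked between ZT4 and ZT12 under DRF and 3199 of 10976 between ZT12 and ZT20 under NRF. Nop56 of the box C/D particle peaked at ZT17.9 ± 0.705 (SE) under NRF, against ZT7.06 to ZT8.96 for the called hosts, and Nop58 at ZT18.9 ± 0.888. Nhp2 of the box H/ACA particle peaked at ZT21.2 ± 1.12. Of 10 assembly factors 6 were rhythmic in each regimen and 6 differed, led by Rpap3 (adjusted p = 4.50e-07), Nolc1 (5.90e-06) and Naf1 (6.07e-06).

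Genes of the pathways that act on host RNAs were called in part. The shares of all genes called were 34.9% for the DRF rhythm, 43.7% for the NRF rhythm and 38.8% for the difference. Of 10 nonsense-mediated decay factors 6 were rhythmic in each regimen and 5 differed: the helicase Upf1 peaked at ZT17.8 ± 0.464 (SE) under NRF and at ZT5.26 under DRF (adjusted p = 1.58e-10), and Smg6 and Smg5 differed at adjusted p = 1.60e-07 and 4.17e-06. Of 13 genes of mTOR signalling, tract binding and ribosomal RNA synthesis, 8 were rhythmic under DRF, 11 under NRF and 11 differed. Mtor peaked at ZT8.48 ± 0.287 under NRF and ZT21.0 under DRF (adjusted p = 9.90e-15), and Eif4ebp1, which holds back translation, at ZT9.08 ± 0.388 and ZT0.654 (adjusted p = 2.38e-12). Larp1, which binds the pyrimidine tract, peaked at ZT22.7 ± 0.370 and ZT10.0 (adjusted p = 3.01e-16). All 18 clock genes were rhythmic in both regimens and differed between them. Their median log2 amplitude was 1.51 under NRF and 0.86 under DRF, beside 0.27 and 0.16 for the 8 hosts. Most clock genes averaged more units than any host, and the added 1 shrinks amplitudes more in low genes. These medians are therefore not on an equal footing. With 0.1 added instead, NRF amplitudes were 0.70 in place of 0.56 for 1110038B12Rik and 0.64 in place of 0.45 for Snhg6.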

How the data were processed

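Strand-specific RNA libraries of 56 mouse livers were compared. The protocol describes ribosomal RNA depletion whereas the molecule field of the labels names polyA RNA, and the conflict bears on snoRNA and retained-intron values. The submitters' processing notes name CASAVA 1.8, featureCounts 1.5.0-p3 and the builds mm10 and GRCm38.p6. Neither the aligner nor the annotation is given in the sources used here, nor whether reads were counted by strand. The deposited gene and transcript values carry the name TPM but are a score: value times exon length equals a library factor times ln(1 + count/scale). The step was inverted with exon lengths of GENCODE vM21. Of 559411 values of up to 20000 counts in genes held out of the fit, 96.9% came out whole within 0.05. Of 25415 genes 25141 were kept. A table of circular RNAs was not used, since its identifiers name no host gene.

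Scaled counts were analysed on the log2 scale after adding 1, with limma 3.58.1 (R 4.3.3, variance trend) as a cosinor with a mean, cosine and sine per regimen, and as 14 group means. Amplitude and peak errors are delta-method SEs. P-values are two-sided and adjusted by Benjamini-Hochberg over all genes. Each liver is taken as a separate animal. The fit was tested on simulated data. Alternatives were another pseudocount (0.1), deposited values, median-of-ratios scaling, a filter, removal of each library's length trend, no variance trend, a rank test, a linear fit, leaving out ZT0, ZT24 or single libraries, and a replicate block, besides 2 sets of libraries left out that were chosen after seeing the data. P-values set each effect against a residual spread. In the fit of 14 group means that is the spread between livers, and in the cosinor it also takes in misfit to the cosine.

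The members, lists and tests were chosen with earlier results of these data known. All 8 hosts are described. From each other list up to 4 genes with the lowest adjusted p for the difference in rhythm are named (1 such gene is not reported here), and for each host the gene of mean at least 1 unit with the highest correlation of group means (the rule allowed 3).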

Additional observations from a re-analysis of the deposited data

Results flagged for a closer look

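The 24-h rhythm differed between DRF and NRF for 1110038B12Rik (limma adjusted p = 3.55e-10), Snhg1 (3.71e-06), Snhg6 (5.82e-06), Snhg12 (0.00303) and Gas5 (0.0328).

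Dixon's ratio was computed for 112 groups of 4 livers and passed its 95% critical value in 6, where chance gives about 1 in 20 groups. In NRF livers, 1110038B12Rik stood at 6.36 units in ZT12 replicate 2 against 4.07 in the next liver. Snhg3 stood at 3.27 in ZT16 replicate 3 against 1.86, at 1.95 in ZT12 replicate 3 against 1.55, and at 1.01 in ZT0 replicate 3 against 1.54. Snhg12 stood at 1.31 in ZT8 replicate 1 against 2.29. Under DRF, Snhg8 stood at 1.06 in ZT0 replicate 2, against 1.17 in the next liver.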

How the results depend on the processing

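The counts of hosts with a called DRF rhythm (3 to 5 over the settings other than single libraries left out), NRF rhythm (4 to 6), difference in rhythm (4 or 5) and departure from inversion (3 to 5) stayed within 1.5 times those given, where the filter at a mean of 1 unit left 6 of the 8 hosts. The count of ZT24 against ZT0 calls was 1 of 16, and became 3 with the length trend removed and 2 without NRF ZT12 replicate 2 and NRF ZT16 replicate 3 together. With single libraries left out, the rhythmic transcripts numbered 7 to 14, the highest without NRF ZT12 replicate 3. Differences in mean level that were not called changed sign for Snhg8 without the ZT24 livers (-0.0048 against 0.0041 on the log2 scale, and -0.018 to 0.030 with single libraries left out), for Snhg6 (0.0199) and Snhg12 (0.0097) without the pair of NRF livers, and for Snhg6 without NRF ZT12 replicate 2 (-0.077 to 0.0031 over single libraries); the cause was not tested. Gas5 lost its NRF call on the deposited scale (adjusted p = 0.116), on linear counts (0.0508), without ZT24 (0.0640) and without ZT0 (0.0513).

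Replicate numbers do not pair the livers. Deviations of livers with the same number correlated at a mean of 0.0048 over 364 pairs and passed 0.1 in 33. With the replicate block the counts were 4, 5, 5 and 5 for DRF rhythm, NRF rhythm, difference and departure from inversion, and 12 for the times of day.

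With 4 livers per group and hosts at 338 to 3382 median recovered counts, the spread between livers limits what can be called.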
